A study of Homo sapiens with 6 samples.

Results

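This report concerns 49 genes for which probe sets of the same gene on one array differed in their change after CPVL knockdown, with 169 probe sets in all. They were found among 3781 genes that had 2 or more usable probe sets. A probe set, a group of short probes read as 1 value, was usable if it was no array control and had exactly 1 Entrez gene identifier in the authors' deposited table. It also carried no x_at or s_at suffix, which mark probes that match several genes or transcripts, and its mean over the 6 arrays was 7 or more on the log2 scale. A gene was taken if the range of the change over its usable probe sets was 0.6 or more, where change means the shCPVL mean minus the shCtrl mean. The genes were thus chosen by their measured change, and the changes given here describe them and test nothing.

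The arrays measured RNA of U251, a human glioma cell line, in cells that carried a lentiviral short hairpin RNA. CPVL encodes a protein of the serine carboxypeptidase family. The control group carried a negative control hairpin (shCtrl), and in the other group the hairpin was directed at CPVL (shCPVL). Each group had 3 arrays, and both groups shared the cell line and the lentiviral delivery. The labels do not say how many hairpin sequences were used, nor whether replicates were separate cultures, so the spread between arrays may be technical.

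Human genes commonly yield several transcripts from one locus. Alternative splicing changes which exons are joined, and alternative cleavage and polyadenylation changes where the transcript ends, so that some messages carry a long 3' untranslated region and others a short one or another last exon. The labelling kit named in the labels primes from the poly(A) tail, and a probe set that lies upstream of one end and downstream of another reads different sets of transcripts. Probe sets of one gene can then report different changes. The deposited table gives 1 start and 1 end per alignment and no probe positions, so the exon a probe set reads is not known here.

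CPVL itself was lower in every shCPVL array. Its probe set read 8.24, 8.39 and 8.18 on the shCtrl arrays and 7.38, 7.25 and 7.21 on the shCPVL arrays, a change of −0.99 (SE 0.07, limma adjusted p = 5.9e-05; exact two-sided permutation p = 0.1, the smallest that 3 against 3 arrays allow). Over all 49293 probe sets other than controls, 9127 (18.5%) were called at an adjusted p under 0.05 by limma, 3910 higher (7.93%) and 5217 lower (10.6%). In bulk RNA, fewer cells of a kind and less RNA per cell cannot be told apart. The array medians lay between 6.85 and 6.87. All 9 glioma and astroglia markers lay between 7.47 and 14.24 in shCtrl and 4 of them fell. None of 7 microglia and macrophage markers, 5 endothelial markers or 5 oligodendrocyte markers was called, while 2 of 5 neuronal markers and 1 of 4 epithelial markers rose. The part of these markers in the results was not tested. The 9 hybridisation controls were higher in shCPVL by 0.31 on average, and their part was not tested either.

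Among the 49 genes, 8 belong to a list of interferon-stimulated genes, of which 48 of 50 measured members rose and 0 fell, where 8.01% of all 18837 genes rose and 11% fell. The list's median change was 1.84 beside −0.01 over all genes. This list was chosen with earlier results of these data known, so its counts and median are a description and support nothing. The share of list genes among all genes with 2 or more usable probe sets was not counted, so nothing is read from the 8 of 49. Signalling from the interferon receptor ends on a DNA element with 2 close copies of the letters GAAA, so the stretch around it is shown for the genes that have it before a start. Of the 8 genes, 6 had a listed start in the RefSeq table (GRCh38.p14), and 4 of these had such a pair of GAAA copies, with 1 or 2 bases of any kind between them and on either strand, in the 250 bases before 1 or more starts. Over all 35116 listed starts, 5.48% had one before them. This share counts single starts, whereas the 4 of 6 counts genes, some with 2 starts, so nothing is read from setting them side by side. Capitals mark the pair, and each line reads 5′ to 3′ on the gene's strand.
IFI44L, chr1:78620350-78620409, plus strand: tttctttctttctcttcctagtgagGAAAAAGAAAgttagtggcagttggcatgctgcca
OAS1, chr12:112906920-112906961, plus strand: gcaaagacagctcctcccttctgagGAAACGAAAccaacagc
PARP9, chr3:122564307-122564366, minus strand: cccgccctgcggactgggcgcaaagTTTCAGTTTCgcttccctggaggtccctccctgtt
SP110, first listed start, chr2:230225708-230225766, minus strand: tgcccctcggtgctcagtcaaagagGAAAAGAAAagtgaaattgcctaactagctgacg
SP110, second listed start, chr2:230219995-230220053, minus strand: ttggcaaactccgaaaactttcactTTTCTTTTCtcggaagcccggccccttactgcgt
PARP9 and SP110 each have 2 listed starts, and at SP110 both carry such a pair, while at PARP9 1 of them does. SAMD9L and STAT2 had none in this window, which says only that these letters are not there.

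Disagreement of this size was rare. The range of change over a gene's usable probe sets had a median of 0.09 over the 3781 genes and a 95th percentile of 0.37, and the 49 genes are 1.30% of them. Their own ranges ran from 0.60 to 8.16 with a median of 0.74, and 8 were 1 or more. Just inside the limit lay NFYA (0.61) and VPS36 (0.60). RSBN1 (0.60, from 0.599 before rounding), CADM1 (0.59) and NRG1 (0.59) lay just outside it.

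**Figure D1:**
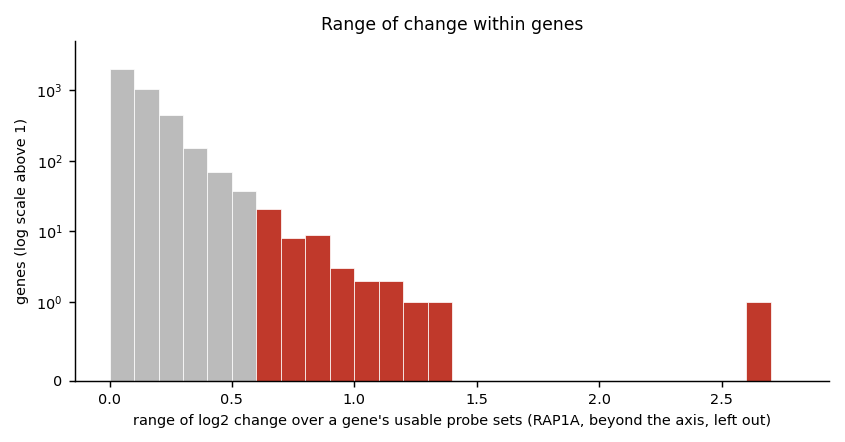
Number of genes (log scale above 1) by the range of log2 change over their usable probe sets, in steps of 0.1, for the 3781 genes except RAP1A at 8.16. Red bars are the genes with a range of 0.6 or more, which thin out quickly beyond 0.7.

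Of the 169 probe sets, 43 were called higher, 66 lower and 60 were not called, where 7.93% of all 49293 probe sets were called higher and 10.6% lower. Over the 9575 usable probe sets of all 3781 genes, 32.4% were called in either direction. The groups of arrays did not overlap for 139 of the 169, where 35% of all probe sets showed no overlap. Since the change chose the genes, nothing is read from these counts. In 10 genes every probe set was called in the same direction and the disagreement was one of size, 7 higher and 3 lower. In 8 genes probe sets were called in opposite directions, where 13 (0.344%) of all 3781 genes had such calls. In 23 genes some probe sets fell and the others were not called, and in 8 genes some rose and the others were not called. The difference between the highest and the lowest probe set, taken within each array, was larger in every shCPVL array than in any shCtrl array for all 49 genes, which follows largely from the rule.

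**Figure D2:**
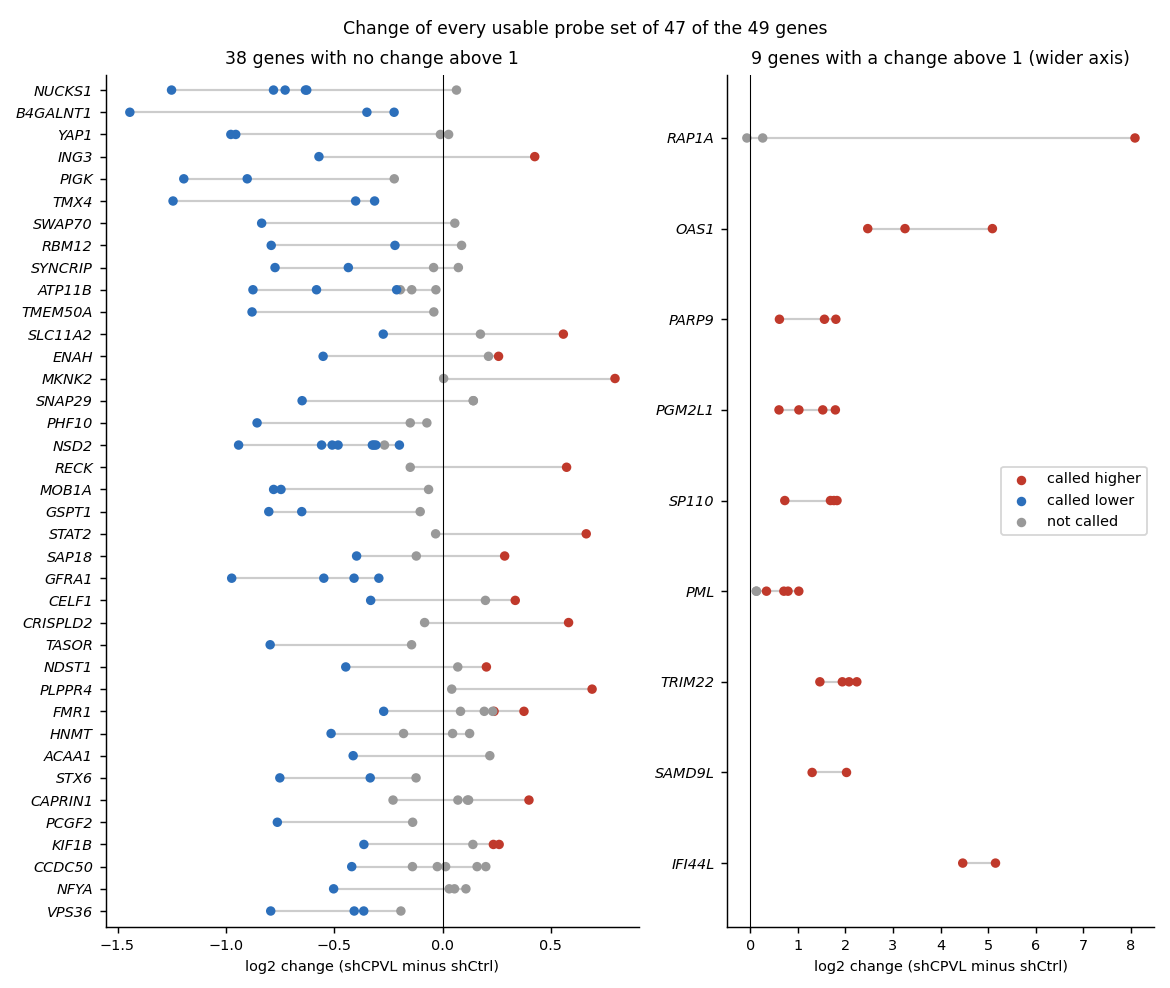
Log2 change (shCPVL minus shCtrl) of each usable probe set of 47 of the genes, 1 point per probe set and 1 line per gene, ordered by range. Red points were called higher, blue lower and grey not called; the right panel has a wider axis for the 9 genes with a change above 1, led by RAP1A at 8.09.

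RAP1A, which encodes a small GTPase of the RAS family, had by far the greatest range. Its probe set 11762533_a_at read 5.93, 5.92 and 5.87 on the shCtrl arrays and 14.00, 13.98 and 14.01 on the shCPVL arrays. The ratio of these values is 272-fold, but only 35.1% of probe sets read lower in shCtrl, so the control level is low and the ratio is approximate. It was the only one of the 49293 probe sets with a change over 6, the next greatest being 5.16. In shCPVL it had the 30th highest mean. Its shCtrl mean of 5.91 lay below the intensity limit of the rule, which applied to the mean over all arrays. This probe set thus passed the limit only through its shCPVL values, so a rise was a condition of its entry. Without this probe set RAP1A would not be among the chosen genes. Probe set 11716097_a_at of the same gene read 10.05, 10.27 and 10.62 in shCtrl and 10.72, 10.65 and 10.34 in shCPVL, so its groups overlapped. Those of 11716098_a_at also overlapped, at 9.72, 9.80 and 9.77 against 9.72, 9.70 and 9.65, and the left-out 11716099_s_at changed by −0.10 and was not called. The authors' deposited table names no build and aligns these 3 to chr1:112162398-112256340, plus strand. The probe set that rose has no alignment there, and no value here shows which sequence it reads. Of 187 probe sets without an alignment, 5 changed by 1 or more in size. Besides RAP1A these were HCP5 (2.01) and 3 with no gene identifier (1.22, 1.47 and 1.51), all named after their values were seen.

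The interferon-stimulated genes in the set mostly rose at every probe set and differed in size. For part of these probe sets a rise was a condition of entry, because the limit of 7 applied to the mean over all 6 arrays. All usable probe sets of OAS1 and IFI44L had shCtrl means below 7. So did the probe sets with the greatest change in SAMD9L, TRIM22 and STAT2. All of these passed the limit only through their higher shCPVL values. OAS1 encodes an enzyme that senses double-stranded RNA, and its transcripts are known to be spliced to different last exons. Probe set 11719588_a_at, aligned to chr12:113344738-113356176 on the plus strand, read 4.99, 5.04 and 4.92 in shCtrl and 10.11, 10.10 and 10.02 in shCPVL. Probe set 11740891_a_at, whose alignment ends at 113357711, rose by 3.25 (SE 0.11). Probe set 11724255_a_at, whose alignment ends at 113357708, read 6.43, 6.23 and 6.56 against 9.19, 9.13 and 8.30. The greatest change was at the alignment that ended earliest, but an s_at probe set outside the rule, on the same alignment as the last of these, rose by 4.83 (SE 0.12). Shared ends thus did not go with equal changes, and shCPVL replicate 3 was the lowest of its group at all 3 usable probe sets.

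PML, the scaffold of PML nuclear bodies, is known for many protein forms that differ in their last exons, and its 6 usable probe sets have 6 different alignments, all from about the same start. The 1 whose alignment reaches furthest 3', to position 74340162 of chr15, read 7.30, 7.32 and 7.20 in shCtrl and 8.25, 8.32 and 8.29 in shCPVL. Those ending at 74335678 and 74336214 rose by 0.79 (SE 0.06) and 0.71 (SE 0.09), and that ending at 74338607 rose by 0.34 (SE 0.07). Those ending at 74337473 and 74337985 changed by 0.13 each and their groups overlapped. A dim probe set outside the rule, on the same alignment as the one that rose most, rose by 0.31 (SE 0.06), so the changes followed no order of the ends. Without shCPVL replicate 3 the range of PML was 1.02 in place of 0.89.

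PARP9, an ADP-ribosyltransferase family member that acts with the ligase DTX3L, rose by 1.80 (SE 0.07) and 1.56 (SE 0.05) at its a_at probe sets. At probe set 11754379_at, whose alignment spans chr3:122250622-122283194, it read 7.67, 7.56 and 7.61 against 8.32, 8.19 and 8.17, a rise of 0.61. SP110, a nuclear body protein, rose by 1.69 to 1.82 at 3 probe sets and by 0.73 (SE 0.06) at 11752801_a_at. TRIM22, a ubiquitin ligase with antiviral activity, rose by 1.46 at the probe set whose alignment ends earliest, at position 5731180 of chr11. Its other 3 rose by 1.94 to 2.24.

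IFI44L rose by 5.16 (SE 0.08) and 4.47 (SE 0.08), and SAMD9L by 2.02 (SE 0.09) and 1.30 (SE 0.06), in each case at probe sets that share 1 alignment. STAT2, a transcription factor of the interferon response, and PML were the genes of the 8 with a probe set that was not called. At STAT2, probe set 11752794_a_at read 6.79, 6.74 and 6.51 in shCtrl and 7.41, 7.38 and 7.22 in shCPVL, while 11760880_a_at read 7.16, 6.85 and 7.13 against 6.92, 7.01 and 7.10. Both lay at the intensity limit of the rule, with means of 7.01 and 7.03. The s_at probe set of STAT2 with the highest signal, which the rule leaves out, rose by 1.15 from 9.34.

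**Figure D3:**
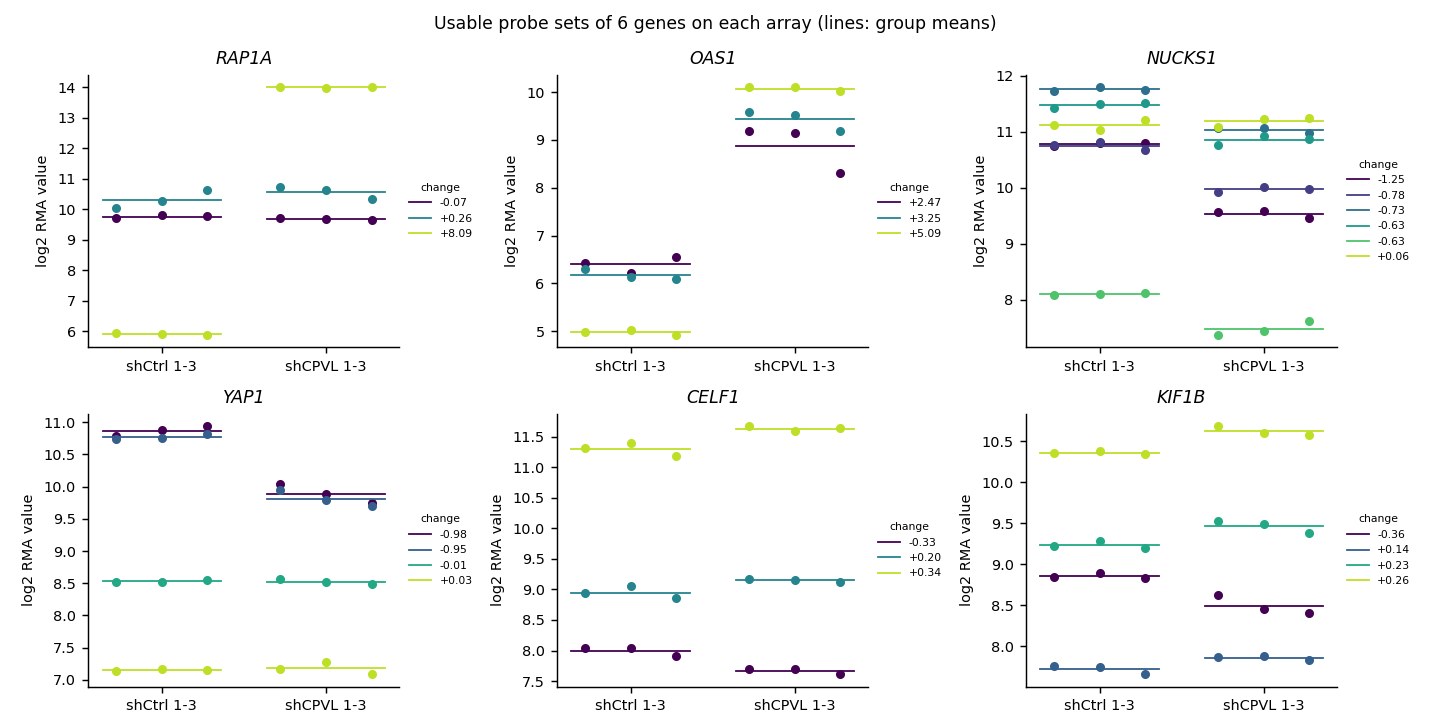
Log2 RMA value of each usable probe set of RAP1A, OAS1, NUCKS1, YAP1, CELF1 and KIF1B on the 6 arrays, 1 colour per probe set, with points for arrays and lines for group means. The legend gives each probe set's change; in RAP1A 1 probe set moves from 5.91 to 14.00 while the other 2 stay near 10.

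In 8 genes at least 1 probe set rose while another fell. KIF1B encodes kinesin motors that are known to share a motor domain and to differ in the tail through alternative 3' exons. Its probe set 11720710_a_at, the only usable one whose alignment runs to position 10441661 of chr1, read 8.85, 8.90 and 8.84 in shCtrl and 8.63, 8.46 and 8.41 in shCPVL. Probe set 11718635_at, whose alignment stops at 10368652, read 10.35, 10.38 and 10.34 against 10.68, 10.60 and 10.58. A second probe set on that shorter alignment rose by 0.23 (SE 0.06) and the other changed by 0.14 and was not called. Outside the rule, an x_at probe set on the long alignment changed by −0.15 and a dim one ending at 10437995 by 0.01, neither called, so the lower value of the long span rests on 1 probe set.

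SLC11A2, the divalent metal transporter of iron uptake, is known to end in different last exons, of which one carries an iron-responsive element. Probe set 11744052_a_at, with its downstream end at position 51379491 of chr12 on the minus strand, read 8.45, 8.51 and 8.43 in shCtrl and rose to a mean of 9.02 ± 0.04 (SD, n = 3). Probe set 11759691_a_at reaches 6174 bases further downstream and read 7.78, 7.85 and 7.74 against 7.61, 7.49 and 7.45. The groups did not overlap at either probe set. A probe set that shares the shorter alignment changed by 0.17 and was not called. Dim probe sets outside the rule changed by −0.02 on the shorter alignment and by −0.05 on the longer one, neither called. The left-out 11764275_s_at, aligned to 51373566-51373768 near the downstream end of the longer alignment, had a mean of 7.96. It changed by −0.08 and was not called, so the lower value of the longer span rests on 11759691_a_at alone.

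ING3, a reader of histone methylation in the NuA4 acetyltransferase complex, had 2 usable probe sets. The one on the short alignment, chr7:120590811-120597032, read 7.31, 7.16 and 7.31 in shCtrl and 7.89, 7.65 and 7.51 in shCPVL. The one on the long alignment, chr7:120590816-120616404, read 8.20, 8.22 and 8.20 against 7.75, 7.65 and 7.51. A second probe set on the short alignment, 11728784_a_at with a mean of 6.85, changed by −0.03 and was not called. NDST1, a heparan sulfate modifying enzyme, fell by 0.45 (SE 0.06) at a probe set whose alignment stops at position 149919334 of chr5 and rose by 0.20 (SE 0.06) at one that runs to 149937772. The other probe set on that longer alignment changed by 0.07 and was not called, and NDST1 kept no opposite calls when any 1 array was left out.

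The other 4 genes with opposite calls were CELF1, SAP18, FMR1 and ENAH. CELF1, a regulator of splicing and RNA decay, read 11.32, 11.39 and 11.19 against 11.67, 11.60 and 11.64 at 11763403_a_at and 8.05, 8.03 and 7.91 against 7.70, 7.69 and 7.61 at 11738155_a_at. SAP18, a subunit of the exon junction ASAP complex and of histone deacetylase complexes, rose by 0.29 (SE 0.06) and fell by 0.40 (SE 0.06) at probe sets on 1 alignment. FMR1, the RNA-binding protein lost in fragile X syndrome, rose by 0.38 (SE 0.07) and 0.24 (SE 0.06) and fell by 0.27 (SE 0.07) at 11764055_at. A usable probe set on the same alignment as the latter changed by 0.08 and an x_at probe set there by −0.07, neither called. ENAH, an actin regulator, rose by 0.26 (SE 0.07) and fell by 0.55 (SE 0.09), again on 1 alignment. When any 1 array was left out, 3 to 6 of these 8 genes kept calls in both directions. CELF1, KIF1B and SAP18 kept them under all 11 alternatives. The number was 3 without shCtrl replicate 2, 4 without shCtrl replicate 1, and 5 without shCPVL replicate 2 or 3, of which 4 and 5 were among these 8.

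A larger group held probe sets that fell beside others that were not called. YAP1, the transcriptional coactivator at the end of the Hippo pathway, had 2 of each. Probe set 11717920_a_at read 10.79, 10.87 and 10.94 in shCtrl and 10.04, 9.89 and 9.74 in shCPVL, and 11740548_a_at fell by 0.95 (SE 0.07). Probe set 11717924_a_at, on the same alignment as the first, read 8.53, 8.53 and 8.54 against 8.56, 8.51 and 8.49, and 11746496_a_at changed by 0.03. Among the YAP1 probe sets outside the rule, 3 fell by 0.79 to 0.99 and 1 changed by 0.13. The level of YAP1 thus appears lower or unmoved depending on the probe set. MOB1A, an adaptor of the LATS kinases in the same pathway, fell by 0.75 (SE 0.06) and 0.78 (SE 0.09) at its _at probe sets. Its a_at probe set, on the same alignment, changed by −0.06.

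NUCKS1, a chromatin-associated DNA-binding protein, fell at 5 of 6 probe sets. The greatest fall was at 11728647_at, which read 10.76, 10.81 and 10.80 against 9.57, 9.58 and 9.46. Probe set 11728645_a_at, on the same alignment, read 11.13, 11.04 and 11.21 against 11.09, 11.23 and 11.25. Only this last probe set had overlapping groups. NSD2, a histone H3 lysine 36 methyltransferase that is known to yield a short and a long protein, had 9 usable probe sets and fell at 8 of them. Those aligned up to 1983930 and 1983934 of chr4 fell by 0.51 and 0.56. Of the probe sets on the alignment that stops at 1944302, 1 fell by 0.94 (SE 0.06) and 1 by 0.32 (SE 0.08), so probe sets on 1 span were unequal.

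The next 4 genes, of chromatin and transcription, each had 1 lower probe set beside others not called. PHF10, a subunit of SWI/SNF complexes, fell by 0.86 (SE 0.08) at the probe set whose alignment stops 2838 bases short of the others, which changed by −0.15 and −0.07. TASOR, of the HUSH silencing complex, fell by 0.80 (SE 0.06) at the further 3' probe set and changed by −0.14 at the other. The Polycomb gene PCGF2 showed the same order, with −0.76 (SE 0.05) and −0.14. NFYA, a subunit of the CCAAT-binding factor NF-Y, fell by 0.50 (SE 0.07) at 1 of 4 probe sets and the others changed by 0.03 to 0.11.

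SYNCRIP, an hnRNP-like protein, fell at the usable probe sets whose alignments reach furthest 3' on the minus strand of chr6. At 11744468_at, with its downstream end at 86317320, it read 8.82, 8.82 and 8.92 against 8.54, 8.45 and 8.26, and at 11746118_a_at, with its end at 86320988, it fell by 0.77 (SE 0.09). Those ending at 86323502 and 86324473 changed by 0.07 and −0.04 with overlapping groups. An s_at probe set outside the rule that also ends at 86323502 fell by 0.27 (SE 0.05), less than the s_at probe sets at the further ends, which fell by 0.63 and 0.65. A dim probe set outside the rule with its end at 86317320 changed by −0.26 (SE 0.13) and was not called. RBM12 fell by 0.79 (SE 0.09) and 0.22 (SE 0.06) and changed by 0.09 at the other. GSPT1, the translation termination factor eRF3a, fell by 0.80 and 0.65 and changed by −0.10.

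TMEM50A, a membrane protein, read 8.64, 8.79 and 8.71 against 7.94, 7.85 and 7.71 at one probe set and 11.54, 11.50 and 11.51 against 11.51, 11.49 and 11.44 at the other, on 1 alignment. The SNARE genes SNAP29 and STX6 fell by 0.65 (SE 0.06) at 1 of 3 probe sets and by 0.75 (SE 0.05) and 0.33 (SE 0.08) at 2 of 3. The ESCRT-II gene VPS36 fell at 3 of 4 probe sets, by 0.36 to 0.79. ATP11B, a lipid flippase subunit, fell by 0.88 and 0.58 at the probe sets confined to chr3:182615089-182632803, and changed by −0.21 to −0.03 at 4 with other alignments, of which 1 was called. SWAP70, which remodels actin at membranes, fell by 0.83 (SE 0.06) at 11721502_at. At 11721500_at the arrays spread from 7.55 to 8.26 within shCPVL, so that its mean of 7.91 is poorly fixed.

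Among enzymes and surface proteins, B4GALNT1, the ganglioside GM2 synthase, fell more the further 3' its probe sets reached on the minus strand of chr12. At 11759664_a_at, with its downstream end at 58019954, it read 8.42, 8.41 and 8.32 against 7.11, 6.86 and 6.85. With ends at 58022391 and 58024910 it fell by 0.35 (SE 0.08) and 0.22 (SE 0.06). A dim probe set outside the rule with the same end as the first fell by only 0.45. HNMT, which inactivates histamine, read 7.92, 7.96 and 7.73 against 7.34, 7.50 and 7.22 at the probe set whose alignment is shortest, ending at 138727786 of chr2. The alignment to 138739248 gave −0.18 and those to 138774388 gave 0.05 and 0.12, none of them called. Among the usable probe sets the order of change followed the position of the end in both genes, in opposite directions. A dim probe set of HNMT that ends at 138739248 changed by −0.04.

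PIGK, of the GPI transamidase, fell by 1.19 (SE 0.06) and 0.90 (SE 0.08) and changed by −0.22 without a call, all on 1 alignment. The redox protein gene TMX4 fell at all 3 probe sets, from −0.31 to −1.24, as did the neurotrophic receptor gene GFRA1 at all 4, from −0.29 to −0.97. ACAA1, a peroxisomal thiolase, fell by 0.41 (SE 0.05) at one probe set and changed by 0.22 without a call at the other. Outside the rule, its s_at probe set fell by 0.50 (SE 0.06) and its x_at probe sets by 0.24 to 0.46, all called. CCDC50 fell by 0.42 (SE 0.06) at 1 of 6, and the other 5 changed by −0.14 to 0.20.

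Fewer genes had probe sets that rose beside others that were not called. MKNK2, a kinase of the translation factor eIF4E that is known to be spliced to different last exons, read 8.70, 8.70 and 8.61 against 9.51, 9.49 and 9.41 at 11739146_a_at. At 11739147_a_at, on the same alignment, it read 9.40, 9.42 and 9.37 against 9.45, 9.37 and 9.39. RECK, a membrane-anchored inhibitor of metalloproteinases, rose by 0.57 (SE 0.09) at the further 3' probe set and changed by −0.15 at the other. CRISPLD2 (0.58, SE 0.08, and −0.08) and PLPPR4 (0.69, SE 0.09, and 0.04) also rose at their further 3' probe sets. Outside the rule, dim probe sets of CRISPLD2 ending at 84940878 and 84943114 of chr16 changed by 0.10 and 0.20, neither called. The rise of CRISPLD2 thus rests on 1 probe set. Dim probe sets of RECK and PLPPR4 outside the rule rose by 0.25 (SE 0.07) and 0.39 (SE 0.07). CAPRIN1, an RNA-binding protein of stress granules, rose by 0.40 (SE 0.06) at 1 of 5. PGM2L1, which makes glucose bisphosphate, rose at all 4 probe sets on 1 alignment, by 1.79 (SE 0.05), 1.52, 1.02 and 0.60.

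Alignment ends differed enough to order the probe sets in only part of the genes. In 21 of the 49 genes 1 probe set had an alignment end further 3' than all others. This probe set had the highest change of its gene in 6 and the lowest in 8, and in 7 neither. Among the genes that were not chosen, 1939 allowed the same ordering, and the 3'-most probe set had the highest change in 47.7% and the lowest in 44.0%. The chosen genes have more probe sets (3.45 per gene on average against 2.52), which lowers both shares. With ends at least 100 bases apart, a limit chosen after the data were seen, 16 genes remained, 5 with the highest and 8 with the lowest change at the 3'-most probe set. The median difference between the 3'-most probe set and the mean of the others was −0.19 in the 21 genes and −0.38 in the 16. Both directions occurred among the genes that could be ordered by these ends. Ordered by the midpoint of the alignment, the counts were 5 with the highest and 12 with the lowest change. Probe positions are not known, so no orientation along the transcript is read from these counts.

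**Figure D4:**
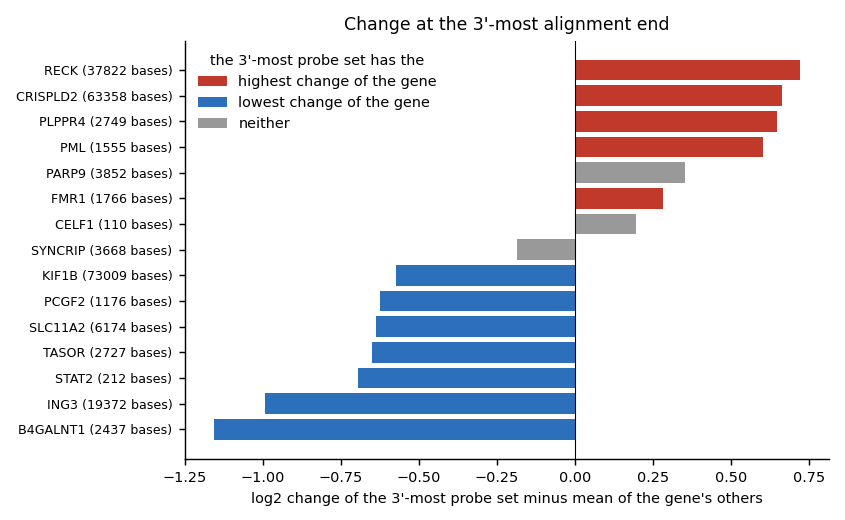
Change of the 3'-most probe set minus the mean change of the gene's other usable probe sets (log2), for 15 of the 16 genes whose 3'-most alignment end lies at least 100 bases beyond the next, given in brackets. Bars run from RECK at 0.72 to B4GALNT1 at −1.16.

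In 16 genes the probe sets with the highest and the lowest change shared 1 alignment, and in 32 their alignments differed, the remaining gene being RAP1A. Over the 3781 genes the extremes shared 1 alignment in 34.1%. In 11 of the 49 genes all usable probe sets had the same alignment. For the 16, among them NUCKS1, PGM2L1, PIGK, TMX4, TMEM50A and MKNK2, the deposited coordinates therefore do not separate the probe sets that disagree. The number of RefSeq transcripts per gene had a median of 6 in the 49 genes and also of 6 in 3731 others with 2 or more usable probe sets that were found in the table. More than 1 start was listed for 25.6% of the 39 chosen genes with a listed start and for 32.6% of 3132 others. The share of genes chosen was 0.585% of genes with 2 usable probe sets, 1.78% with 3, 3.27% with 4, 1.19% of 84 genes with 5 and 16.7% of 36 genes with 6. Of the 169 probe sets 74.0% had the suffix a_at, which marks probes shared by transcripts of 1 gene, beside 80.1% of the usable probe sets of all 3781 genes.

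Control probe sets along single transcripts give a reading of 3' to 5' balance that the rule did not use. For ACTB the 3' value minus the 5' value was 0.24, 0.30 and 0.33 in shCtrl and 0.32, 0.28 and 0.28 in shCPVL, and for GAPDH it averaged −0.06 in both groups, with an SD of 0.02 over the 3 shCtrl arrays and of 0.01 over the 3 shCPVL arrays. Exact two-sided permutation tests gave p = 1 and p = 0.7, and the groups differed by 0.00 and −0.01. The smallest p that 3 against 3 arrays allow is 0.1. As group means these 3' and 5' probe sets read between 13.49 and 14.08, where the highest shCPVL mean of any non-control probe set was 14.45. Saturation can compress differences at that level. The chosen probe sets had a median level of 8.49, and whether the balance holds there was not tested.

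**Figure D5:**
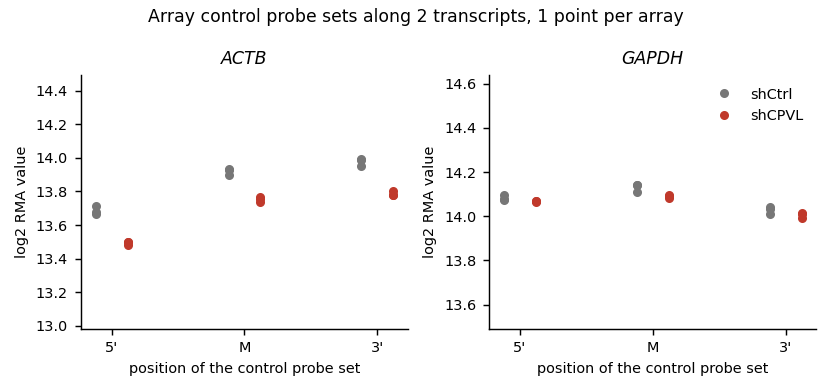
Log2 RMA values of the array's control probe sets at the 5' end, the middle (M) and the 3' end of ACTB and GAPDH, 1 point per array. The 3' to 5' difference of the group means moves by 0.00 for ACTB and by −0.01 for GAPDH.

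The same genes had 88 further probe sets that the rule leaves out, 55 for their suffix and 33 for a mean below 7. Of the first, 11 rose and 22 fell, and of the second, 6 rose and 7 fell, where 7.93% of all probe sets rose and 10.6% fell. Their genes were chosen by the change, so nothing is read from these counts. Several of the 88 sided with one of the disagreeing probe sets. The s_at probe set of NUCKS1 fell by 1.19 (SE 0.06), near its lowest usable one. For TMEM50A both x_at probe sets changed by −0.08 and −0.02, near the one not called, and for MKNK2 all 3 changed by 0.05 to 0.08. These probe sets were named after their values were seen.

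Factors that choose transcript ends and exons were examined as lists, taking for each gene the probe set of highest mean. Of 20 cleavage and polyadenylation factors, 0 rose and 3 fell, where 19% of all genes were called in either direction. The factors had shCtrl means of 7.88 or more, while the 19% covers genes of every level. Over the 9575 usable probe sets, which had means of 7 or more, 32.4% were called. The list's median change was −0.02 beside −0.01 over all genes. CPSF2, a subunit of the cleavage complex, fell by 0.53 (SE 0.06, limma adjusted p = 5.9e-04), CSTF2, which binds the downstream element of the poly(A) site, by 0.52 (SE 0.07, limma adjusted p = 0.0015) and CPSF7 by 0.33 (SE 0.06, limma adjusted p = 0.0042). NUDT21, the CPSF7 partner that binds upstream UGUA elements, was at −0.05 (limma adjusted p = 0.61). Of 36 measured splicing regulators, 3 rose and 5 fell, with a median of −0.01. TRA2B fell by 0.40 (SE 0.05, limma adjusted p = 0.0011), and MBNL2 rose by 0.32 (SE 0.09, limma adjusted p = 0.042). CELF1, read here by its probe set with the highest signal, rose by 0.34, and its opposite calls are given above. The number of splicing regulators called fell from 8 to 4 without shCtrl replicate 1 or shCPVL replicate 2 and to 5 without shCPVL replicate 1.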

How the data were processed

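The authors deposited log2 values of 49395 probe sets on 6 arrays, for which the submitters' processing notes name RMA. Its version, and the build of the alignments, are not given in the sources used here. RMA gives all arrays nearly one distribution, so a change reads against the bulk of probe sets, and background and saturation compress log2 differences. The authors' deposited table of their own comparison (p-value, FDR as an adjusted p-value, log2 fold change, a signed fold score and a linear fold ratio, per the file headers) supplied Entrez identifiers and alignments. Its log2 fold column matched the group differences computed here. Of 49293 probe sets that are not controls, 46869 had exactly 1 identifier, 33831 of these no x_at or s_at suffix, and 14515 a mean of 7 or more. All 49 genes received a symbol from a RefSeq table (GRCh38.p14), used for names, listed starts and the printed sequences.

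Testing used limma 3.58.1 under R 4.3.3 (lmFit, then eBayes with no trend), with two-sided p-values adjusted by Benjamini-Hochberg over 49293 probe sets and calls at an adjusted p under 0.05. The fit was checked on simulated data. Precision is limited by the number of arrays. The named genes were those with the 16 greatest ranges, opposite calls, most probe sets, a place on a list or at the limit, and the 3 greatest called changes of the cleavage and splicing lists; the other chosen genes are described as part of the set. Members and lists were chosen with earlier results of these data known. Other normalization, centring, the block, trend, other limits and the removal of each array were the alternatives. Some genes of the set and control probe sets are not reported here.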

Additional observations from a re-analysis of the deposited data

How the results depend on the processing

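CPVL stayed lower and called under all 11 alternatives (−1.04 to −0.93). With single arrays left out, the probe sets called over all ran from 5648 (without shCPVL replicate 2; 5889 without shCtrl replicate 1) to 8006 beside 9127, the genes with opposite calls from 3 to 6 beside 8, the splicing regulators called from 4 to 10 beside 8, and the chosen genes from 47 to 59 beside 49, of which 43 to 47 were shared. With an intensity trend 7 cleavage and polyadenylation factors and 17 splicing regulators were called, and with only probe sets of mean 7 or more fitted, 6 and 14. The labels do not say whether replicate numbers pair the arrays. Deviations of same-numbered arrays from their group means correlated at −0.25, 0.09 and 0.22, and only 1 of the 3 shCtrl arrays correlated best with its own number. With 3 arrays per group these values cannot decide whether the arrays were paired. The replicate block gave 5 splicing regulators, 6 genes with opposite calls, 41 probe sets higher and 61 lower among the chosen, 7672 over all and the same CPVL change of −0.99.

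The rule's limits moved the number of chosen genes to 92 with a mean of 6 or more, 20 with 8 or more, 86 with a range of 0.5 or more, 8 with 1 or more, and 77 with x_at and s_at probe sets included. Under the first 4 limits the 3'-most probe set had the highest change in 19, 1, 14 and 0 genes and the lowest in 9, 2, 16 and 1; with the order taken by midpoint these were 5 and 12. Of 279 alternative values for the ranges of 31 named genes, 278 moved by less than the spread between arrays, the exception being PML. Most of this count was fixed in advance. Centring on the array median and the replicate block cannot change a range. Leaving out 1 array can move a group mean only by a part of that group's spread. The count therefore cannot decide how stable the ranges are, and nothing is read from it. Probe sets near a mean of 7 lie just above the array medians of 6.85 to 6.87. Background at this level was not measured and may compress their changes.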
